A study of Mus musculus with 12 samples.

Results

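The costimulatory receptors and CD40 ligand of CD4+ T cells were followed here as 8 genes: Cd28, Icos, Cd27, Tnfrsf4 (OX40), Tnfrsf9 (4-1BB), Tnfrsf25 (DR3), Cd40lg and Cd226 (DNAM-1). They were listed by name, without a threshold on any value, and each was matched to the table by its Entrez identifier. All 8 of 8 were found among 17523 genes in the table, and all 8 passed the filter on low values together with 15587 genes in total. CD4+ T cells came from the spleens of unimmunized Gr/fr mice aged 2 to 3 months. These mice carry a Csf2 allele that also makes iCre and blue fluorescent protein, and a Rosa26 eYFP allele that iCre switches on. YFP+ cells therefore express or once expressed GM-CSF, and every group, YFP- included, carries both alleles. Naive cells were sorted as low in CD44 and TEM (effector memory) cells as high in CD44, within the study's gates for these cells, and each was split into YFP- and YFP+ cells, which gave 4 groups of 3 libraries. No gate on CD25 is described for this sort, so the TEM gate can hold regulatory T cells, and YFP reports the activity of the modified Csf2 allele and not GM-CSF protein.

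A T cell that meets antigen needs a further signal to respond in full, and costimulatory receptors carry it. CD28 and ICOS belong to the immunoglobulin superfamily and bind B7 family ligands, CD80 and CD86 for CD28 and ICOS ligand for ICOS. CD27, OX40, 4-1BB and DR3 belong to the TNF receptor superfamily. They bind TNF family ligands on antigen-presenting cells and signal through TRAF adaptors, or in the case of DR3 through TRADD, to NF-kB. CD40 ligand is itself a TNF family member that T cells present to CD40 on B cells and dendritic cells. CD226 binds CD155 (Pvr) and CD112 (Nectin2), and TIGIT and CD96 compete with it for these ligands, much as CTLA-4 competes with CD28.

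The libraries held from 40974124 to 57822269 reads on genes, so the lowest read number behind any value of the 8 genes was 252, for Tnfrsf9 in a naive library. Each value below is a normalized count, that is, the reads on a gene over its library's size factor. The sort labels could be checked on Cd44. Cd44 ranged from 2334 to 3372 normalized counts in naive and from 21778 to 29383 in TEM libraries. Cd4 had at least 36078 normalized counts in each library. Markers of plasmacytoid dendritic cells and myeloid cells were highest in TEM YFP- libraries. There the 6 plasmacytoid dendritic cell markers summed to between 10892 and 20214 normalized counts, against 2522 to 4266 in the other 9 libraries. The 6 myeloid markers summed to between 12997 and 25180 in TEM YFP- libraries and to between 467 and 4225 in the others. CD8 T cell markers (Cd8a and Cd8b1) summed to between 685 and 1490 in TEM YFP-, between 187 and 373 in TEM YFP+ and between 500.4 and 1321 in naive libraries, and the 6 B cell markers to between 539 and 3259 over the 12 libraries. The CD8 genes did not keep the same proportion between groups. Cd8a had 39 to 83 and Cd8b1 1083 to 1282 in naive YFP- libraries, against 160 to 483 and 525 to 1007 in TEM YFP-. In bulk RNA, fewer cells of a type and less RNA per cell cannot be told apart.

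On GRCm38 (mm10), Cd28 (chr1:60746388-60773359) and Icos (chr1:60960773-61000322) lie next to each other with Ctla4 between them. Tnfrsf9 (chr4:150920155-150946104), Tnfrsf25 (chr4:152115528-152120119) and Tnfrsf4 (chr4:156013595-156016613) share chromosome 4. Cd27 lies at chr6:125232620-125237136 and Cd40lg at chrX:57212143-57224042. Tnfrsf4 and Tnfrsf9 had the widest difference between TEM and naive cells among the 8 genes, and Cd27 was the TNF receptor gene that was lower in TEM cells, so their promoter windows are shown for comparison. RefSeq (GRCm38.p6) gave windows of 250 bases before to 50 bases after a start for 4 of 8 genes, 6 windows in all, and Tnfrsf9 and Tnfrsf25 each had a pair of starts. Capitals mark matches on either strand to AP-1 (TGANTCA), to the NF-kB consensus or to an NFAT core (TGGAAA). The windows are chr4:156013445-156013744 on the + strand for Tnfrsf4, chr4:150919905-150920204 and chr4:150927749-150928048 on the + strand for the upstream and downstream start of Tnfrsf9, and chr6:125236978-125237277 on the - strand for Cd27.
Tnfrsf4: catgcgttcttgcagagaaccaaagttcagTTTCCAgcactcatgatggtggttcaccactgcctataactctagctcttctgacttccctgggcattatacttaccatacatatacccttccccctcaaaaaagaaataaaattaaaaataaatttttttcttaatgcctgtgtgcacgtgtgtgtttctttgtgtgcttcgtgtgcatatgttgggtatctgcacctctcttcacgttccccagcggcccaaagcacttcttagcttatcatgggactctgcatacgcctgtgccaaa
Tnfrsf9 upstream start: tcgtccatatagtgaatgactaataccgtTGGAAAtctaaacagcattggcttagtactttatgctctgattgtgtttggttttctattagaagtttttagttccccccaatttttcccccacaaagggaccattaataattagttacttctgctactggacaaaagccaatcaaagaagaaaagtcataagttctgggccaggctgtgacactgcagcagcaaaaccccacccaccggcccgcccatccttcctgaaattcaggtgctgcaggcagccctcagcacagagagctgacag
Tnfrsf9 downstream start: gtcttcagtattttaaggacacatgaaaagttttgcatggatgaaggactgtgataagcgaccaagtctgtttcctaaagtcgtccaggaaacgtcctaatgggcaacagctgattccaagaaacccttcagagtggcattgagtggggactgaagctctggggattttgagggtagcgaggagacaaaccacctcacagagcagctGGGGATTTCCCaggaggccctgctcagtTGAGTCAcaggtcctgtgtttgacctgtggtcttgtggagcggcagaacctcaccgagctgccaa
Cd27: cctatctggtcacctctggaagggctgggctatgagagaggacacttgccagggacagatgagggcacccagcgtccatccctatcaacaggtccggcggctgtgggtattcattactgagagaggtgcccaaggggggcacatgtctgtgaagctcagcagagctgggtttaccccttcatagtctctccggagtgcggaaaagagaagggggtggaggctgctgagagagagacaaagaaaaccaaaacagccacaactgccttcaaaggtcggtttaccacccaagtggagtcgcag

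The downstream Tnfrsf9 window held an AP-1 match 15 bases before the start and 2 overlapping NF-kB matches that began 43 bases before it. Of 32851 RefSeq windows of the same length, 7.81% held the AP-1 letters, 8.46% the NF-kB consensus and 0.539% both. The Tnfrsf4 window and the upstream Tnfrsf9 window each held 1 NFAT core, 220 and 221 bases before their starts, as did 21.4% of all windows. Of the Tnfrsf25 windows, not printed, the one at the second start held 2 NF-kB matches and the other no match. The Cd27 window held none of these letters. A match is a description of the sequence and not a binding site.

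Per kilobase of exon the members differed widely in level. In naive YFP- cells Cd27 stood at 4266 ± 482 normalized counts per kb and Cd28 at 3547 ± 1197 (mean ± SD, n = 3), and Tnfrsf9 was at the low end with 131 ± 22. Cd40lg stood at 2571 ± 460 there, Tnfrsf25 at 866 ± 161, Icos at 659 ± 165, Tnfrsf4 at 563 ± 125 and Cd226 at 405 ± 38. The order was different in TEM YFP- cells, where Tnfrsf4 had the highest mean, 7852 ± 2297 per kb, and Cd226 the lowest, 708 ± 82. Cd28 (3925 ± 591), Icos (3911 ± 487) and Cd27 (3354 ± 4) lay close together in TEM YFP- cells. Exonic lengths were taken from GENCODE M21.

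**Figure D1:**
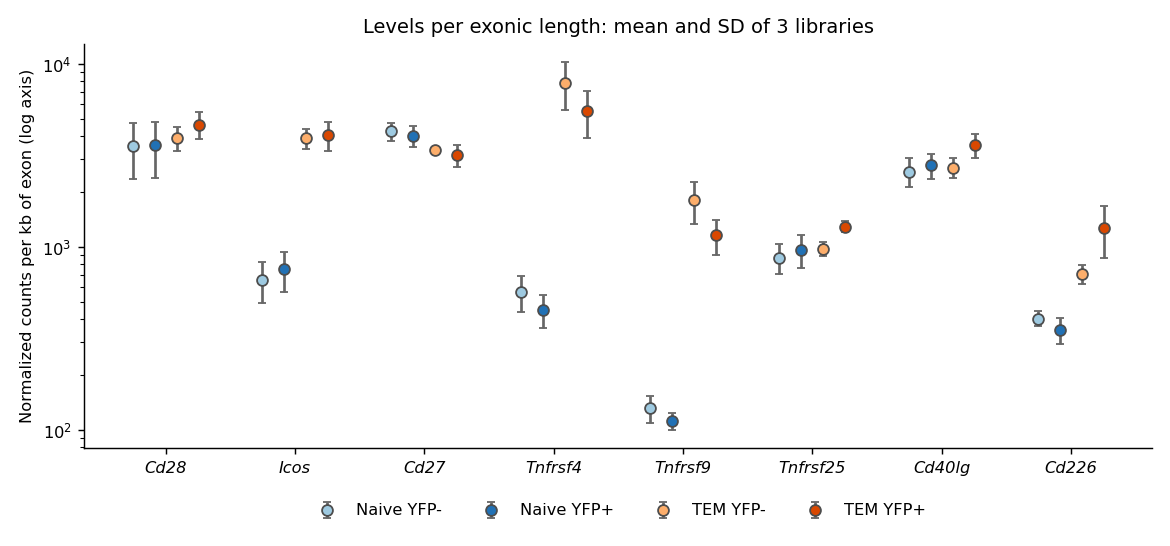
Mean level of each gene in normalized counts per kb of exon (log axis), with bars of 1 SD over 3 libraries, in naive YFP-, naive YFP+, TEM YFP- and TEM YFP+ cells. Icos, Tnfrsf4 and Tnfrsf9 sit far lower in both naive groups than in both TEM groups, while Cd28, Cd27, Tnfrsf25 and Cd40lg stay within a narrow band.

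The first question was how the genes differ between TEM and naive cells of the same YFP status. Icos, Tnfrsf4, Tnfrsf9 and Cd226 rose in TEM cells in both YFP fractions and Cd27 fell in both, by limma across all genes with Benjamini-Hochberg adjusted p of 0.05 or less. In YFP- cells 5 of 8 genes were called, beside 49.8% of all genes tested. These were 4 higher, beside 29.9% of all genes, and 1 lower, beside 19.9%. In YFP+ cells 6 of 8 were called, beside 41.4% of all genes, with 5 higher (24.7% of all genes) and 1 lower (16.7%), the added one being Tnfrsf25. The median log2 fold change of the 8 genes was 0.50 in YFP- and 1.13 in YFP+ cells, beside 0.05 and 0.03 over all genes tested. Under quantile normalization the median over all genes moved to -0.20 and -0.14, and the split of calls turned from 4665 higher and 3104 lower to 3585 and 5925 in YFP- cells and from 3849 and 2604 to 3063 and 4626 in YFP+ cells. Icos, Tnfrsf4, Tnfrsf9 and Cd226 were called higher in TEM cells there too. Most markers of regulatory T cells and all of follicular helper T cells were also higher in TEM cells. Of 8 regulatory T cell markers, 7 were called higher and 1, Gpr83, lower in either YFP fraction. All 8 follicular helper markers were called higher in either fraction. Over all genes the shares were 29.9% higher and 19.9% lower in YFP- cells and 24.7% and 16.7% in YFP+ cells. Mean Gpr83 went from 963 to 527 normalized counts in YFP- and from 696 to 341 in YFP+ cells. The 8 regulatory T cell markers summed to between 8919 and 14646 normalized counts in naive and between 59054 and 82645 in TEM libraries, and the 8 follicular helper markers to between 4157 and 4715 and between 32874 and 71192. Their part in the TEM values was not tested.

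**Figure D2:**
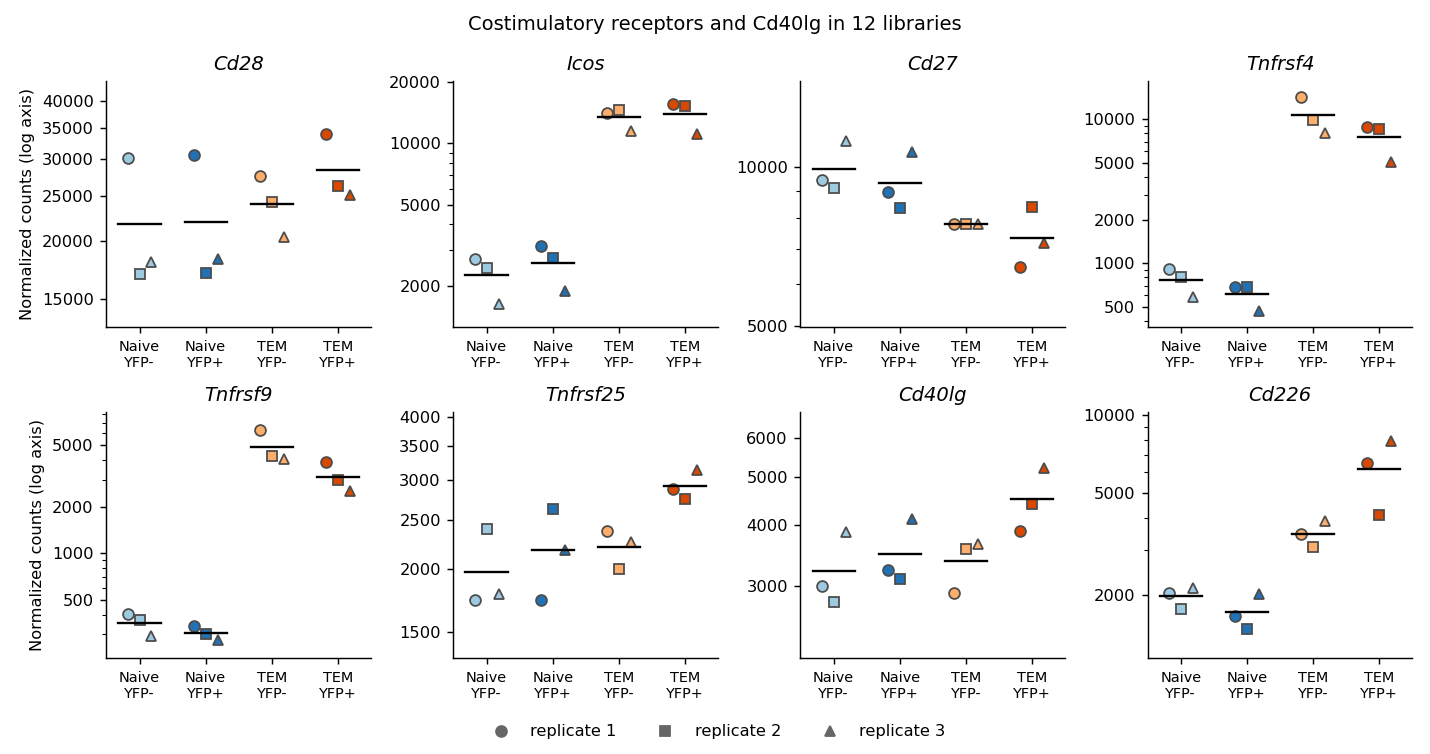
Normalized counts (log axis, one scale per panel) of the 8 genes in each of 12 libraries, with symbols for replicates 1, 2 and 3 and a line at each group's mean. Icos, Tnfrsf4, Tnfrsf9 and Cd226 separate all naive from all TEM libraries, and the highest Cd226 values, 6535 and 7938, are in TEM YFP+ cells.

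Tnfrsf4 encodes OX40, which sustains survival of activated CD4+ T cells and is abundant on regulatory T cells. Tnfrsf4 had 919, 803 and 584 normalized counts in naive YFP- cells and 689, 687 and 469 in naive YFP+ cells, for replicates 1, 2 and 3. It had 14171, 9934 and 8049 in TEM YFP- cells and 8804, 8620 and 5058 in TEM YFP+ cells. The TEM and naive libraries were far apart, and within each cell type the YFP+ and YFP- libraries overlapped. The log2 fold change of TEM over naive was 3.78 (SE 0.26, adjusted p = 2.05e-07), or 13.8-fold, in YFP- cells. In YFP+ cells it was 3.58 (SE 0.26, adjusted p = 4.12e-07). Tnfrsf4 overlaps Sdf4, a calcium-binding protein gene with 13365 to 21199 normalized counts, and the strand setting of the counting is not given in the sources used here.

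Tnfrsf9 encodes 4-1BB, a receptor induced by activation on T cells. Naive libraries held 407, 370 and 290 normalized counts of it without YFP and 338, 299 and 273 with YFP. TEM libraries held 6315, 4271 and 4061 without YFP and 3887, 2973 and 2536 with YFP. No TEM library came near a naive one, and the 3 TEM YFP+ libraries were all under the 3 TEM YFP- libraries. The rise from naive to TEM cells was 13.5-fold in YFP- cells (log2 3.76, SE 0.20, adjusted p = 2.15e-08) and 10.2-fold in YFP+ cells (log2 3.35, SE 0.20, adjusted p = 6.98e-08).

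Icos encodes a receptor that supports follicular helper and other effector T cells. Its normalized counts were 2716, 2439 and 1625 in naive YFP- cells and 3129, 2736 and 1884 in naive YFP+ cells. They were 14057, 14671 and 11518 in TEM YFP- cells and 15580, 15349 and 11094 in TEM YFP+ cells. The YFP fractions of each cell type overlapped, and TEM cells lay above naive cells without overlap. Icos rose 6.04-fold in YFP- (log2 2.59, SE 0.22, adjusted p = 1.06e-06) and 5.48-fold in YFP+ cells (log2 2.45, SE 0.22, adjusted p = 2.48e-06).

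Cd226, on chromosome 18, encodes an adhesion and costimulatory receptor of T cells and NK cells. Cd226 had 2037, 1770 and 2129 normalized counts in naive YFP- cells and 1656, 1478 and 2019 in naive YFP+ cells. In TEM cells it had 3444, 3071 and 3871 without YFP and 6535, 4095 and 7938 with YFP. The naive groups overlapped, TEM YFP- lay above both, and TEM YFP+ above TEM YFP-. It rose 1.75-fold from naive to TEM cells in the YFP- fraction (log2 0.80, SE 0.20, adjusted p = 0.00517) and 3.50-fold in the YFP+ fraction (log2 1.81, SE 0.20, adjusted p = 1.55e-05).

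Cd27, the receptor for CD70 and a gene kept high in naive T cells, moved the other way. Naive cells held 9474, 9112 and 11210 normalized counts without YFP and 8982, 8372 and 10687 with YFP. TEM cells held 7798, 7818 and 7806 without YFP and 6461, 8392 and 7181 with YFP. TEM YFP- libraries were under all naive ones, while 1 TEM YFP+ library, replicate 2, reached into the range of naive YFP+ cells. On the log2 scale Cd27 fell by 0.34 in YFP- cells (SE 0.12, adjusted p = 0.0282) and by 0.35 in YFP+ cells (SE 0.12, adjusted p = 0.0306). The call was lost under quantile normalization (adjusted p = 0.13 and 0.099), without the variance trend (0.054 and 0.059), in YFP+ cells in the fit of these groups alone (0.077), and without naive replicate 3 of the same fraction (0.12 and 0.14). It was also lost in YFP- cells without any 1 TEM YFP- library (adjusted p = 0.065 each) and, in YFP+ cells, without TEM YFP+ replicate 1 or 3 (0.13 and 0.079). The noncoding E130112N10Rik, which overlaps Cd27, had 105 to 319 normalized counts.

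Tnfrsf25 encodes DR3, the receptor for TL1A (Tnfsf15). Its naive libraries read 1738, 2395 and 1783 normalized counts without YFP and 1734, 2627 and 2176 with YFP. Its TEM libraries read 2377, 2002 and 2261 without YFP and 2872, 2756 and 3144 with YFP. The TEM YFP+ libraries lay above those of the other groups, which overlapped with each other. Tnfrsf25 rose by 0.44 on the log2 scale in YFP+ TEM over naive cells (SE 0.15, adjusted p = 0.0348). In YFP- cells the value was 0.18 (95% interval -0.15 to 0.51, adjusted p = 0.359). The YFP+ call was lost in edgeR (adjusted p = 0.062), under quantile normalization (0.051), without the variance trend (0.067), in the fit of these groups alone (0.054), and without naive YFP+ replicate 1 or 3 or TEM YFP+ replicate 1 or 3 (0.068 to 0.14).

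Cd28 encodes the main costimulatory receptor of naive T cells. Cd28 had 30152, 16949 and 18038 normalized counts in naive YFP- cells and 30558, 17063 and 18288 in naive YFP+ cells. It had 27551, 24209 and 20324 in TEM YFP- cells and 33923, 26257 and 25050 in TEM YFP+ cells. Neighbouring groups overlapped throughout, and replicate 1 was highest in all 4 groups. The log2 difference of TEM from naive was 0.19 (95% interval -0.36 to 0.73, adjusted p = 0.566) in YFP- cells and 0.41 (-0.13 to 0.95, adjusted p = 0.214) in YFP+ cells, so changes of up to 1.65-fold and 1.93-fold lie within the intervals. Of 27 alternatives without a fold threshold, 5 called the YFP+ difference and 1 the YFP- difference. With the replicate number as a block in the fit, the YFP+ interval was 0.16 to 0.66 (adjusted p = 0.0118).

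Cd40lg, the X-linked gene of the ligand that gives help to B cells, showed 3000, 2778 and 3865 normalized counts in naive YFP- cells and 3229, 3099 and 4100 in naive YFP+ cells. Its TEM values were 2894, 3563 and 3659 without YFP and 3880, 4404 and 5227 with YFP. Both naive groups and TEM YFP- cells overlapped, and TEM YFP+ cells had the highest mean. TEM differed from naive cells by a log2 of 0.08 (95% interval -0.26 to 0.41, adjusted p = 0.711) in YFP- and 0.37 (0.04 to 0.71, adjusted p = 0.0724) in YFP+ cells. The YFP+ difference was called in 4 of 27 alternatives without a fold threshold, among them the fit with the replicate number as a block (adjusted p = 0.00327).

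**Figure D3:**
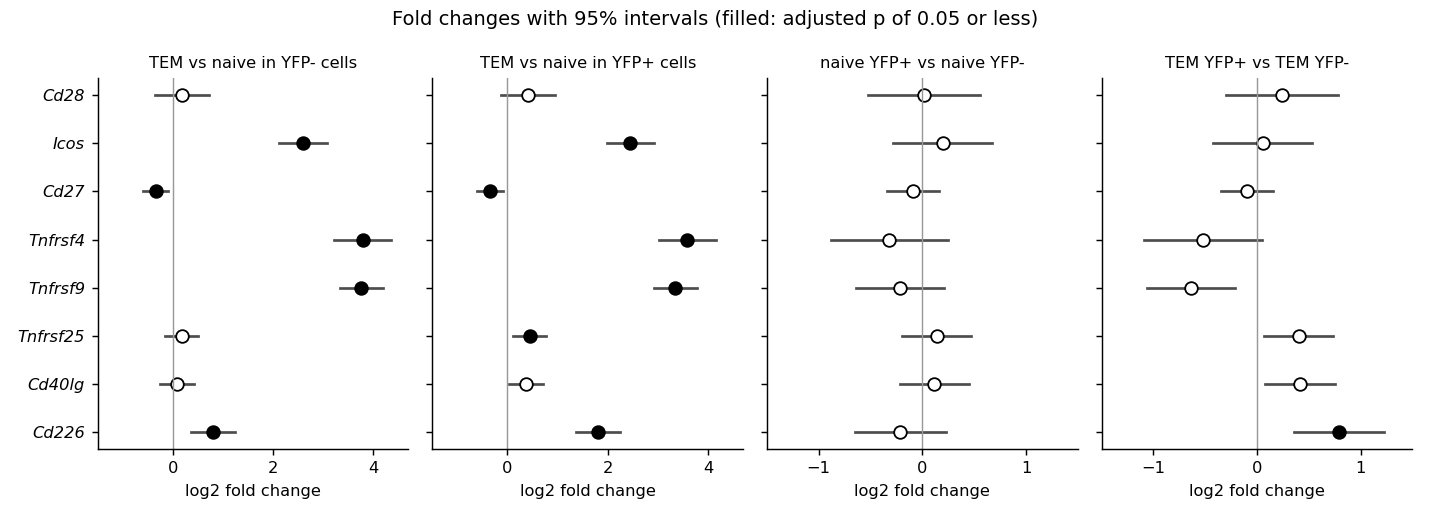
log2 fold change of each gene in 4 comparisons, with 95% intervals from limma, filled where the adjusted p was 0.05 or less. TEM over naive cells moved Tnfrsf4 and Tnfrsf9 by 3.35 or more on the log2 scale in either fraction, while the intervals of all 8 genes include 0 for YFP+ over YFP- naive cells.

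The next question was whether cells with a GM-CSF history differ from those without one. In TEM cells 1 of 8 genes, Cd226, was called between YFP+ and YFP-, beside 6.97% of all genes tested (2.30% higher and 4.67% lower). Under quantile normalization the split over all genes moved from 359 higher and 728 lower to 686 and 806. In this comparison libraries of the same replicate number varied together, and with the number as a block 4 of 8 genes were called. Cd226 and Cd40lg were higher in YFP+ cells, 2 of 8 beside 5.22% of all genes, and Tnfrsf4 and Tnfrsf9 lower, 2 of 8 beside 6.77%. The median log2 difference of the 8 genes was 0.15, beside -0.01 over all genes.

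Cd226 rose 1.73-fold in TEM YFP+ cells (95% interval 1.28 to 2.34, log2 0.79, SE 0.20, adjusted p = 0.0320, and 0.00126 with the block). It was higher in 3 of 3 pairs of same-numbered libraries, by 1.90-fold, 1.33-fold and 2.05-fold. The call was lost without any TEM YFP- library (adjusted p = 0.094, 0.12 and 0.060 without replicates 1, 2 and 3), without TEM YFP+ replicate 1 (0.12) or 3 (0.13), in a fit of the TEM libraries alone (0.073) and without the variance trend (0.082). Of 5 invariant NKT cell markers, 4 moved with it. Zbtb16, the factor that defines these cells, had 260, 108 and 198 normalized counts in TEM YFP- and 2655, 884 and 2088 in TEM YFP+ libraries, and Trav11, the V segment of their receptor, had 125, 89 and 126 against 2303, 937 and 2185. The 5 markers summed to between 10746 and 15862 in TEM YFP- and to between 16760 and 19893 in TEM YFP+ libraries, with 4 of 5 called higher. Of these, Trav11d had counts close to those of Trav11. Slamf6, not called, made up most of each sum. It had 13721, 15423 and 10146 in TEM YFP- against 9540, 16163 and 8518 in TEM YFP+ libraries. Replicate 2 was the lowest of the 3 TEM YFP+ libraries for Cd226, Zbtb16 and Trav11. Ncr1, an NK cell receptor that defines those cells, was at 0 in all TEM YFP- libraries and at 35, 6 and 56 in TEM YFP+ libraries. Called higher were 2 of 4 NK markers in the table, Ncr1 and Klrb1c, which is also on the invariant NKT list. With the block Eomes, another of these 4, was lower, at 494, 634 and 453 normalized counts in TEM YFP- against 375, 460 and 336 in TEM YFP+ libraries (adjusted p = 0.0472, and 0.192 without the block). The part of these cells in the Cd226 difference was not tested.

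Cd40lg was 1.34-fold, 1.24-fold and 1.43-fold higher in the YFP+ library of the 3 TEM pairs, and the groups did not overlap. Its log2 difference was 0.41 (SE 0.16, adjusted p = 0.162), and the adjusted p was 0.00812 with the replicate block. Tnfrsf25 was likewise higher in 3 of 3 pairs, by 1.21-fold, 1.38-fold and 1.39-fold, without overlap. Its log2 difference of 0.40 (SE 0.15) did not pass the test with or without the block (adjusted p = 0.105 and 0.170), and a fit of the TEM libraries alone gave an adjusted p of 0.035.

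Tnfrsf9 was lower in the YFP+ library of each TEM pair, at 0.616, 0.696 and 0.624 of the YFP- level. Its log2 difference was -0.63 (SE 0.20, adjusted p = 0.0795), and with the block the adjusted p was 0.00135. Tnfrsf4 was at 0.621, 0.868 and 0.628 of the YFP- level in the same pairs, with a log2 difference of -0.52 (SE 0.26, adjusted p = 0.354, and 0.00508 with the block). The sum of regulatory T cell markers moved in the same direction, while Il2ra, which is among them, moved the other way. Foxp3, their defining factor, had 19208, 11161 and 17909 normalized counts in TEM YFP- and 9695, 6198 and 10484 in TEM YFP+ libraries (log2 -0.87, adjusted p = 0.045). Of the 8 markers on that list 2 were called, Foxp3 and Ikzf4, both lower, beside 4.67% of all genes. In edgeR 1 of the 8 was called and in DESeq2 3. The list summed to between 76035 and 82645 in TEM YFP- and between 59054 and 68635 in TEM YFP+ libraries. With the block 4 were lower and 1 higher. The higher was Il2ra, at 5038, 3824 and 6136 normalized counts in TEM YFP- against 9016, 5136 and 9195 in TEM YFP+ libraries. The dendritic cell and myeloid sums given above were also higher in TEM YFP- libraries, with 6 of 6 and 4 of 6 markers called lower in TEM YFP+ cells, as were 2 of 2 CD8 T cell markers. The part of these cells in the Tnfrsf4 and Tnfrsf9 values was not tested.

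Icos, Cd28 and Cd27 gave no call between the TEM fractions with or without the block. Icos differed by a log2 of 0.05 (95% interval -0.42 to 0.53), Cd28 by 0.24 (-0.30 to 0.78) and Cd27 by -0.10 (-0.35 to 0.16). Follicular helper markers did not separate the fractions either. The 8 of them summed to between 36878 and 56831 normalized counts in TEM YFP- and between 32874 and 71192 in TEM YFP+ libraries, 0 of 8 were called by limma with or without the block, by edgeR or by DESeq2, 0 of 8 reached an unadjusted p of 0.05, and replicate 2 was highest in both fractions.

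**Figure D4:**
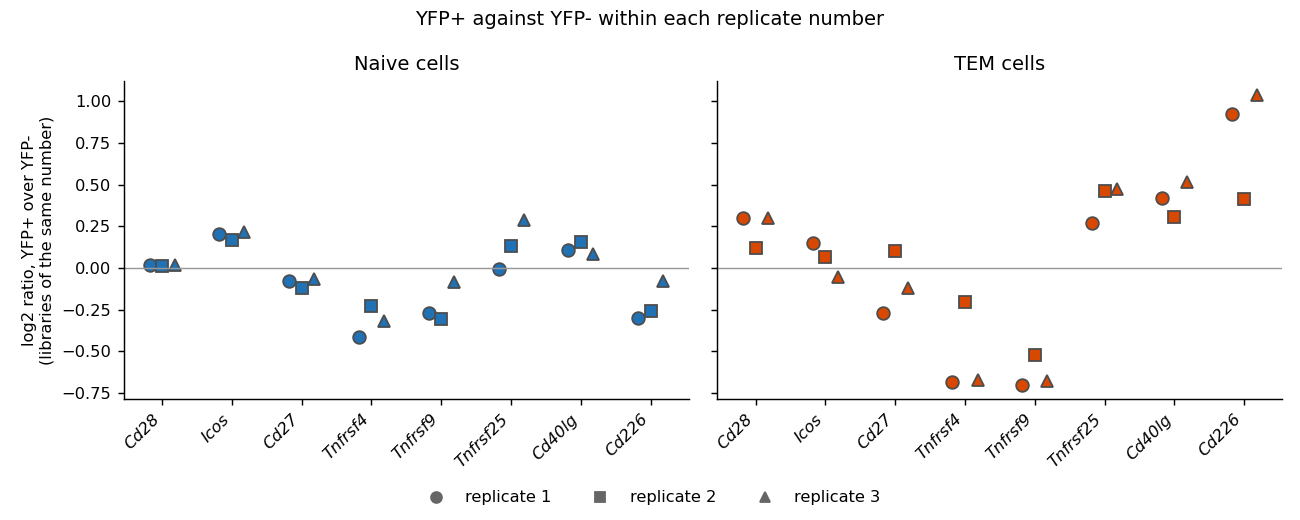
log2 ratio of YFP+ over YFP- normalized counts for libraries of the same replicate number, in naive (left) and TEM cells (right), for the 8 genes. In TEM cells Cd226, Cd40lg, Tnfrsf25 and Cd28 lie above 0 and Tnfrsf4 and Tnfrsf9 below 0 in all 3 pairs, while in naive cells Cd28, Icos and Cd40lg lie above 0 and Cd27, Tnfrsf4, Tnfrsf9 and Cd226 below 0 in all 3.

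In naive cells 0 of 8 genes were called between YFP+ and YFP-, beside 0.00642% of all genes, which is 1 gene. None of the 8 reached an unadjusted p of 0.05 in limma, and edgeR and DESeq2 on the recovered reads also called 0. With the replicate block limma again called 0, and 3 of 8 had an unadjusted p under 0.05, Tnfrsf4 (0.00684, adjusted 0.559), Icos (0.0345, adjusted 0.812) and Tnfrsf9 (0.0365, adjusted 0.816). The intervals leave room for change. Tnfrsf4 differed by a log2 of -0.32 (95% interval -0.89 to 0.25, and -0.53 to -0.11 with the block), Tnfrsf9 by -0.22 (-0.64 to 0.20), Cd226 by -0.21 (-0.65 to 0.23) and Icos by 0.19 (-0.28 to 0.67). Tnfrsf4 was at 0.749, 0.855 and 0.803 of the YFP- level in the 3 naive pairs, and Cd28 stood at 1.01 of that level in each of the 3 pairs. Foxp3 was lower in naive YFP+ libraries too, with 1256, 1087 and 1309 normalized counts against 2352, 1829 and 2911 (adjusted p = 0.947, and 0.0126 with the block).

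The difference between the YFP effects in TEM and naive cells was tested as an interaction. It gave 0 of 8 calls in limma, beside 3.55% of all genes, with 1 gene, Cd226, at an unadjusted p under 0.05. For Cd226 the interaction was 1.00 on the log2 scale (SE 0.28, adjusted p = 0.0868). With the block it was called (adjusted p = 0.00562), the only one of the 8 genes, beside 5.71% of all genes. edgeR gave 0 calls and DESeq2 gave 1, again Cd226 (adjusted p = 0.014). For Tnfrsf9 the interaction was -0.41 (95% interval -1.01 to 0.19) and for Cd40lg 0.30 (-0.18 to 0.77).

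Same-numbered libraries shared much of the spread of these genes. Replicate 1 was highest in all 4 groups for Cd28, Tnfrsf4 and Tnfrsf9, and replicate 3 was lowest in all 4 for Icos, Tnfrsf4 and Tnfrsf9. Replicate 3 was highest in all 4 groups for Cd40lg and Cd226, and replicate 2 was lowest in all 4 for Cd226. The replicate 3 libraries were male by Ddx3y, a Y-linked gene with 3869 normalized counts or more in them and none above 1.06 elsewhere. With 1 male number, sex and replicate number cannot be told apart. The SD of log2 values within a group was 0.46 for Cd28 in both naive groups, beside a median of 0.21 and 0.22 over all genes, and 0.49 for Cd226 in TEM YFP+ cells, beside 0.21.

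Ligands of these receptors are often made by antigen-presenting cells, and 10 genes, the ligands and Cd40, were measured. In YFP- cells 9 were called higher in TEM and 1, Pvr, lower, beside 29.9% and 19.9% of all genes, with a median log2 fold change of 2.88. In YFP+ cells 7 were higher and 1, again Pvr, lower, beside 24.7% and 16.7%, with a median of 1.92. Some of these fold changes rest on naive values near 0, with Cd70 at 0 in all naive libraries and Tnfsf15 at 4.2 or less. Between TEM fractions 1 of 10, Pvr, was called higher and 1, Cd40, lower, beside 2.30% and 4.67% of all genes. Without a call, Cd70, Tnfsf4 and Nectin2 had higher means in TEM YFP+ cells. Cd80, Cd86, Icosl, Tnfsf9 and Tnfsf15 had lower ones. Cd40, the receptor for CD40 ligand, had 185, 153 and 271 normalized counts in TEM YFP- and 24, 24 and 40 in TEM YFP+ libraries, and fell there (log2 -2.75, SE 0.57, adjusted p = 0.00988), a call lost without TEM YFP- replicate 3 (0.059). Cd40 was at 46 or less in each naive library. The dendritic cell and myeloid sums were highest in the same TEM YFP- libraries, and Siglech, a defining plasmacytoid marker, had 1412 to 3367 there against 27 to 118 in TEM YFP+ and 0 to 17 in naive libraries. Their part in the ligand values was not tested. In naive cells 0 of 10 were called between YFP fractions by limma, edgeR or DESeq2, with 2 of 10 at an unadjusted p under 0.05.

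Pvr encodes CD155, the shared ligand of CD226, TIGIT and CD96. Pvr had 2595, 2137 and 2372 normalized counts in naive YFP- cells and 2143, 1976 and 1991 in naive YFP+ cells. In TEM cells it had 1059, 902 and 967 without YFP and 1322, 1250 and 1464 with YFP. The 4 groups kept apart except for the naive pair, which overlapped. Pvr was thus lowest in the TEM YFP- libraries, where the dendritic cell and myeloid sums were highest. It was lower in TEM than naive cells (log2 -1.28 in YFP- and -0.60 in YFP+ cells, adjusted p = 5.21e-07 and 0.000355). Between TEM fractions Pvr was higher in YFP+ cells (log2 0.46, SE 0.10, adjusted p = 0.0116, lost without TEM YFP- replicate 2 or 3 or TEM YFP+ replicate 3, up to 0.061), as Cd226 was, and the interaction was 0.68 (adjusted p = 0.0191).

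Inhibitory receptors that share these ligands were set beside their activating partners. Ctla4 rose in TEM cells by a log2 of 2.97 in YFP- (adjusted p = 8.27e-05) and 3.38 in YFP+ cells (adjusted p = 4.01e-05). Tigit rose by 8.08 and 7.41 (adjusted p = 6.99e-08 and 1.77e-07). Naive libraries held 13 to 65 normalized counts of Tigit, against 4136 to 12340 in TEM libraries. The size of its rise and its naive ratios to Cd226 thus rest on low naive values. Cd96 was called in YFP+ cells alone (0.54, adjusted p = 0.0303, against 0.08 and 0.751 in YFP- cells), and the difference between these did not pass the interaction test (adjusted p = 0.587). The YFP+ call of Cd96 was lost without naive YFP+ replicate 2 or 3 or TEM YFP+ replicate 1 or 3 (adjusted p of 0.131 at most). So 2 of 3 were called higher in YFP- and 3 of 3 in YFP+ cells.

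The log2 ratio of Ctla4 to Cd28 was -3.53, -3.16 and -4.11 in naive YFP- cells and -4.49, -3.80 and -5.17 in naive YFP+ cells. It was -0.44, -0.98 and -1.04 in TEM YFP- cells and -1.55, -1.05 and -1.94 in TEM YFP+ cells. The ratio was thus shifted towards Ctla4 in all TEM libraries, and among TEM cells all 3 YFP+ libraries were under the YFP- ones, by a mean of -0.70. The log2 ratio of Tigit to Cd226 was -5.89, -5.42 and -7.28 in naive YFP- and -5.76, -4.49 and -6.27 in naive YFP+ cells. It was 1.07, 1.60 and 0.57 in TEM YFP- and -0.37, 1.59 and -0.94 in TEM YFP+ cells. Replicate 2 of TEM YFP+ cells kept a ratio like that of its YFP- partner, and replicates 1 and 3 did not. With 3 libraries against 3, the two-sided exact permutation test cannot go below p = 0.10. That value was reached by TEM over naive cells for both ratios and both fractions and by the TEM fractions for Ctla4 to Cd28 (adjusted p = 0.16 over 8 tests). The remaining 3 of 8 tests gave exact p of 0.20, 0.30 and 0.50 (adjusted p = 0.267, 0.343 and 0.50).

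**Figure D5:**
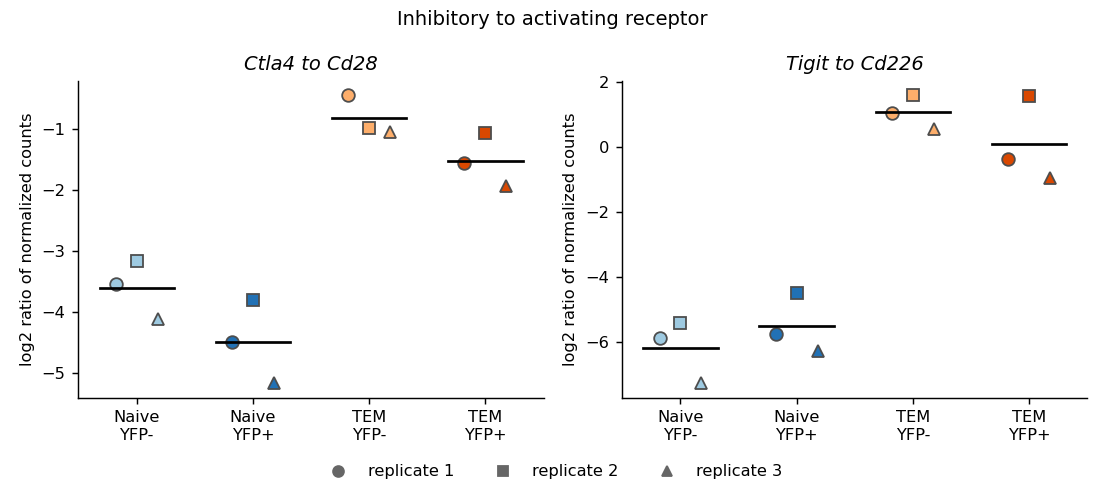
log2 ratio of normalized counts of Ctla4 to Cd28 (left) and Tigit to Cd226 (right) in each library, with a line at the group mean; counts are not divided by length, so only differences between libraries can be read. TEM libraries lie above naive ones in both panels, and TEM YFP+ replicate 2 stands at 1.59 for Tigit to Cd226 while the other TEM YFP+ libraries are at -0.37 and -0.94.

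Behind CD28 and ICOS act kinases and adaptors shared with the T cell receptor. Of 13 such genes, 2 were higher and 6 lower in TEM YFP- cells (median log2 -0.29), beside 29.9% and 19.9% of all genes. In YFP+ cells 1 was higher and 5 lower (median -0.08), beside 24.7% and 16.7%.

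Of 10 other TNF receptor genes, 6 were higher and 1 lower in TEM YFP- cells, beside 29.9% and 19.9% of all genes, and 5 higher and 1 lower in TEM YFP+ cells, beside 24.7% and 16.7%. Their median log2 fold changes were 2.21 and 1.83. Between TEM fractions 0 of 10 were called by limma, with or without the block, or by edgeR, 1 by DESeq2, and 2 had an unadjusted p under 0.05. Tnfrsf11a, the gene of RANK, was called in the interaction (-4.15, SE 0.93, adjusted p = 0.0278). It had 276, 270 and 495 normalized counts in TEM YFP- and 105, 68 and 100 in TEM YFP+ libraries. Naive libraries held 1.2, 4.2 and 0 without YFP and 9.9, 24 and 3.7 with YFP. The interaction thus rests in part on naive values near 0. The high Tnfrsf11a values fall in the libraries with the highest dendritic cell and myeloid sums, whose part was not tested.

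The TNF receptors pass their signal to TRAF adaptors. Of 12 TRAF and TNF receptor adaptor genes, 3 were higher and 2 lower in TEM YFP- cells, beside 29.9% and 19.9% of all genes, and 2 higher and 3 lower in TEM YFP+ cells, beside 24.7% and 16.7%. Traf1, itself an NF-kB target and a partner of 4-1BB, rose in TEM cells (log2 0.78 and 0.76, adjusted p = 2.87e-06 and 5.33e-06). Traf3, an inhibitor of the noncanonical NF-kB pathway, gave 0.15 and 0.19 (adjusted p = 0.362 and 0.285). Of 12 genes of NF-kB subunits and feedback, 7 were higher and 1 lower in TEM YFP- cells, beside the same shares of all genes as above, and 6 higher and 1 lower in TEM YFP+ cells, with medians of 0.54 and 0.45. Nfkb1, the gene of the p105 and p50 subunit, rose by 0.54 and 0.44 (adjusted p = 0.000914 and 0.00487). Nfkbia, the gene of an inhibitor of NF-kB, gave 0.36 and 0.46 (adjusted p = 0.145 and 0.0738, and 0.00075 with the block in YFP- cells). Between TEM fractions 0 of 12 genes were called on either list by limma, edgeR or DESeq2, and 1 of 12 on each was lower with the block. On the adaptor list 1 had an unadjusted p under 0.05, on the NF-kB list 0.

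Genes with the most similar profile over the 12 libraries were sought among 10929 others whose mean was 100 normalized counts or more. Tnfrsf4 and Tnfrsf9 were each other's nearest gene, with a Pearson r of 0.996 on log2 values, followed by Trib1 (0.995) for Tnfrsf4 and Ahr (0.994) for Tnfrsf9. Icos was nearest to Emp1 (0.997) and Marchf3 (0.996). For these 3 genes the 12 points fall into TEM and naive libraries, and 1446, 1517 and 1407 genes had an r of 0.9 or more with Tnfrsf4, Tnfrsf9 and Icos. Cd226 was nearest to Rbl2 (0.983) and Art2b (0.977), with 226 such genes. Cd28 was nearest to Hivep2 (0.977) and Zc3h14 (0.976), with 44 such genes. Cd27 (Hsf2, 0.950, and Nfyb, 0.932), Tnfrsf25 (Slc35f2, 0.951, and Elac1, 0.950) and Cd40lg (Ppp4r3b, 0.917, and Traf3ip2, 0.898) had 9, 5 and 1. These are descriptions over libraries that share cell type, replicate number and sequencing.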

How the data were processed

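Total RNA of sorted CD4+ T cells was sequenced with a stranded kit. The authors mapped reads to mm10 with DRAGEN, counted them on genes with Rsubread and divided them by DESeq2 size factors, and this normalized signal is the deposited unit. The annotation, strand setting and tool versions are not given in the sources used here. Multiplied by the size factor, 100% of values gave whole reads (relative tolerance 1e-06), and 0 columns were left unused.

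Genes that reached 5 normalized counts in 3 or more libraries entered limma 3.58.1 (R 4.3.3) as log2(normalized count + 1), with 4 group means in 1 fit of 12 libraries, a variance trend and Benjamini-Hochberg adjustment. A call is an adjusted p of 0.05 or less with no fold threshold. Fold changes are on this log2 scale. The script was tested on simulated counts. Ratios of receptors were compared with exact permutation tests. The labels do not tie each library to a separate animal, so p-values measure the spread between libraries.

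The 8 genes and all lists were chosen with earlier results of these data known. Named are the 8 genes, the genes of each pathway list called between TEM fractions or in the interaction (otherwise its 2 most abundant), defining markers, and the 2 genes most like each of the 8. A pathway gene and a sort marker are not reported here.

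After group means were removed, same-numbered YFP- and YFP+ libraries correlated with coefficients of 0.180, 0.338 and 0.356 in TEM and 0.306, 0.491 and 0.360 in naive cells, and naive and TEM YFP- libraries with 0.168, 0.137 and 0.232. The numbers were therefore taken to pair these libraries. For naive and TEM YFP+ libraries the values were 0.204, -0.020 and 0.056. Alternatives were other prior counts and filters, quantile and TMM (edgeR 4.0.16) scaling, the groups compared alone, the replicate block, no trend, edgeR and DESeq2 1.42.0 on the recovered reads, fold thresholds, and leaving out each library. Leaving out all 4 libraries of a replicate number was chosen after seeing the data.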

Additional observations from a re-analysis of the deposited data

Results flagged for a closer look

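Cd226 was higher in YFP+ cells in all 3 TEM pairs and lower in all 3 naive pairs. The naive difference was not called (log2 -0.21, interval -0.65 to 0.23), so an opposite effect in naive cells was not shown. With the replicate block the naive interval was -0.46 to 0.04. For Cd226 the interaction was 1.00 on the log2 scale. It missed the limma test (adjusted p = 0.0868). It passed with the replicate block (0.00562) and in DESeq2 (0.014), and it missed in edgeR without the block. Of 12 fits that left out 1 library, only that without TEM YFP+ replicate 2 called it (0.0071). Among the others the adjusted p reached 0.197.

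For Pvr, YFP+ cells were also higher in all 3 TEM pairs and lower in all 3 naive pairs. The interaction was 0.68 (adjusted p = 0.0191). The Pvr call was lost without TEM YFP- replicate 3 or TEM YFP+ replicate 3 (adjusted p of 0.055 at most). For Tnfrsf11a the interaction was -4.15 (adjusted p = 0.0278), with YFP+ libraries lower in all 3 TEM pairs and higher in all 3 naive pairs, and the call held in 4 of 12 fits that left out 1 library (adjusted p of 0.093 at most). The naive values behind it were 24 normalized counts or less.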

How the results depend on the processing

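Among the repeated values of the 8 genes, 1051 kept their direction and side of the threshold, 47 lost a call, 25 gained one and 29 turned direction. Among those of the other named genes the numbers were 725, 61, 20 and 2. For Icos, Tnfrsf4 and Tnfrsf9 the rise from naive to TEM cells was called in each of 27 alternatives without a fold threshold in either YFP fraction. Without all libraries of replicate 1 or 3 the adjusted p of Cd226 between TEM fractions was 0.35 and 0.25.

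Between TEM fractions the genes called numbered 1087, against 1869 with the replicate block, 2098 in edgeR with the block and 543 where the log2 difference had to reach 2 in size. Members called numbered 4 with either block, 2 in DESeq2, and 0 with no trend or with either fold threshold. In naive cells the single gene called became 3 with a prior count of 0.1, 2 with TMM factors or edgeR, 0 in the fit of the groups compared or at a log2 fold change of 2, 6 with either replicate block and 14 in DESeq2. For the interaction 554 became 890 with the block and 844 in DESeq2, and 1 member was called with either block and in DESeq2. At absolute log2 fold changes of 1 and 2, TEM over naive cells gave 4120 and 2750 genes in the YFP- fraction, with 3 members at each, and 3319 and 2020 in the YFP+ fraction, with 3 members at 2.

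Leaving out 1 library, or all libraries of a number, gave 156 (without replicate 3) to 1253 genes and 0 to 1 members between TEM fractions, 0 to 1 genes in naive cells, 0 (without replicate 1 or 3) to 531 genes and 0 to 1 members in the interaction, and 3883 to 6485 genes for TEM over naive YFP+ cells. Small log2 values changed sign within these ranges. In naive cells they were -0.25 to 0.28 for Cd28, -0.027 to 0.41 for Icos, -0.19 to 0.00083 for Cd27, -0.0063 to 0.29 for Tnfrsf25 and -0.0083 to 0.26 for Cd40lg. In the interaction they were -0.039 to 0.49 for Cd28, -0.35 to 0.080 for Icos, -0.12 to 0.093 for Cd27 and -0.39 to 0.060 for Tnfrsf4. Icos between TEM fractions gave -0.053 to 0.21, and TEM over naive YFP- cells -0.065 to 0.22 for Cd40lg and -0.016 to 0.16 for Cd96. Other reversals were Cd28 in naive cells under quantile normalization (-0.0018), the Cd27 interaction with TMM factors (0.029), in edgeR (0.035) and in edgeR with the block (0.033), and Cd40 in TEM over naive YFP+ cells under quantile normalization (-0.13). The cause was not tested.

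For YFP+ TEM over naive cells the coefficients above did not by themselves show pairing by number, though replicate 3 was male in both groups. There the block called all 8 genes, among them Cd28 (adjusted p = 0.0118) and Cd40lg (0.00327). In YFP- cells it changed no call of the 8 genes. Read numbers were high for all 8 genes, and the 3 libraries per group limit the precision.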
